A study of Homo sapiens and Mus musculus with 92 samples.

Results

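Ribosome biogenesis and nucleolar genes form a set of 38 genes among the 28103 gene symbols of the RNA-seq count tables, taken by exact match of their symbols to a list of nucleolar and Pol I factors. Each symbol was found in both tables, and all 38 genes passed the filter on low values in both experiments. The set was split by textbook role into 5 genes of RNA polymerase I transcription, 8 nucleolar chaperones, scaffolds and regulators, 4 proteins of box C/D snoRNPs, 3 of box H/ACA snoRNPs, 9 factors of small subunit assembly and 9 factors of large subunit assembly.

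Ribosomes are built in the nucleolus, where RNA polymerase I (Pol I) transcribes the long precursor of ribosomal RNA. Small nucleolar RNPs (snoRNPs) guide the chemical modification of this precursor, box C/D particles by methylation and box H/ACA particles by pseudouridylation, while separate sets of factors fold and cleave it into the small and the large subunit. Many genes of this program are known targets of the transcription factor MYC, which binds the E-box CACGTG, and the demand for ribosomes is high in proliferating erythroid precursors.

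HEL is an established line of human erythroleukemic cells without a rearranged MLL gene. MLL1 (gene KMT2A), a histone methyltransferase, and AF9 (gene MLLT3), a reader of acylated histones that associates with elongation factors and DOT1L, were knocked down in separate experiments to find the genes whose mRNA depends on either factor in these cells. MLL1 KD was compared with control over 3 libraries a group and AF9 KD over 2 a group, and the 2 experiments share no control library. Every KD library came from cells transduced with lentiviral shRNA #1 against the target, so no second shRNA was measured by RNA-seq. The control cells are given the genotype WT by the labels and a control shRNA by the study's methods, and no clones were picked. Nothing in the labels says which replicates are separate transductions, so the p values measure the spread between these libraries, which may be technical.

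Total counts were between 6966345 and 10380241 in the MLL1 experiment and between 12278989 and 14232408 in the AF9 experiment. The targeted genes were lower in every KD library of their own experiments. KMT2A was at 1319, 1302 and 1254 CPM (counts scaled to library size with TMM factors, in all values here) in the controls and at 815, 812 and 832 CPM in MLL1 KD, a log2 fold change of -0.66 ± 0.09 (SE; adjusted p = 0.0721 without and 2.3e-07 with the replicate as a block). MLLT3 was at 548 and 527 CPM in the controls and at 107 and 92.5 CPM in AF9 KD, a log2 fold change of -2.43 ± 0.11 (adjusted p = 3.2e-08). All adjusted p values are from edgeR's quasi-likelihood test over all genes that reached a mean of 1 TPM (a unit scaled by gene length and depth), with Benjamini-Hochberg adjustment, and a call also needed a change of 1.5-fold or more beside an adjusted p under 0.05. Of 13 erythroid markers 12 had a mean TPM of at least 1 in both experiments, globin genes and GATA1 included, and 2 of 7 lymphocyte markers did. The summed TPM of the erythroid markers was 44303 to 44699 in the controls of the AF9 experiment and 31523 to 38561 in AF9 KD, without overlap. In the MLL1 experiment it was 4701 to 6916 in the controls and 3323 to 5211 in MLL1 KD, with overlap. Megakaryocyte markers summed to 1179 to 1351 TPM and 1227 to 1623 TPM in the former and to 2092 to 2385 TPM and 1760 to 2105 TPM in the latter. Monocyte markers (2 of 6 at a mean TPM of 1 or more in the AF9 and 4 of 6 in the MLL1 experiment) summed to 298 to 317 TPM in the controls and 236 to 284 TPM in AF9 KD, without overlap, and to 68.8 to 106 TPM and 42.6 to 82.3 TPM in the MLL1 experiment. Lymphocyte markers summed to 19 to 20.5 TPM and 20.5 to 28.7 TPM in the AF9 experiment, and to 28.9 to 38.1 TPM in the controls and 54.2 to 56.8 TPM in MLL1 KD, again without overlap. Their part in the results was not tested.

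The E-box CACGTG, which reads the same on both strands, was searched in the RefSeq promoters of the set (GRCh38.p14, 250 bases before to 50 bases after the annotated start). A promoter was listed for 31 of the 38 genes, and 11 of them (35.5%) held the motif. The share was 29.2% of 96 promoters of other ribosome biogenesis genes. It was 10.3% of 9839 promoters of genes tested in the AF9 experiment and 7.43% of all 27305 promoters. The list of members had been described beforehand as holding many genes under MYC control. The 30 bases around the motif are shown for the 6 genes with the motif whose mRNA rose in AF9 KD (described further down). They are also shown for FBL, whose mRNA did not pass the test. Each is written 5′ to 3′ on the strand of the gene, with the E-box in capitals.
MYBBP1A, chr17:4555340-4555369, minus strand: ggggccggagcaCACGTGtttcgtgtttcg
RRP9, chr3:51941892-51941921, minus strand: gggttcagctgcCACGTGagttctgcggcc
UTP20, chr12:101280083-101280112, plus strand: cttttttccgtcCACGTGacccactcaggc
NOP14, chr4:2963374-2963403, minus strand: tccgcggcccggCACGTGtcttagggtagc
PES1, chr22:30591880-30591909, minus strand: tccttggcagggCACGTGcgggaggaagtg
NOP2, chr12:6568242-6568271, minus strand: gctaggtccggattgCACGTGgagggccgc
FBL, chr19:39846356-39846385, minus strand: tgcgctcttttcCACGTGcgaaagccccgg
In these 7 promoters the first base of the motif lies close to the start, from position -10 in UTP20 and -5 in RRP9 to 28 in MYBBP1A and 36 in NOP2, where 1 is the first transcribed base and positions from 1 on lie in the transcribed part. A match describes these letters and not the binding of a factor.

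The set was abundant in HEL cells. Per length, NCL, the nucleolar chaperone nucleolin, was the highest in both experiments, at 336 ± 94 TPM (SD, n = 3) in the controls of the MLL1 experiment and 789 ± 2.19 TPM (n = 2) in those of the AF9 experiment. NPM1, the histone chaperone nucleophosmin, followed at 327 ± 81.8 and 748 ± 12.8 TPM, then FBL, the methyltransferase of box C/D snoRNPs, at 290 ± 36.5 and 691 ± 16.2 TPM. In the MLL1 experiment these neighbours in the order did not differ beyond their spread. The lowest levels were those of NIP7 at 12.1 TPM and UTP15 at 14.4 TPM in the MLL1 experiment, and of UTP15 at 20 TPM and UTP20 at 20.1 TPM in the AF9 experiment. NPM1 shares 74% of the 31-base stretches of its transcript with other genes, mostly pseudogenes, so its level is uncertain. The same holds for NOP2 (96.2%, with an annotated gene that overlaps it), RRN3 (31.6%), NHP2 (23.3%), DDX10 (17.3%) and DDX18 (16.1%), and for the other members the share was under 10%.

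Knockdown of AF9 was followed by higher mRNA of a part of the set. Of the 38 genes 8 were called higher and 0 lower, where 8.02% of the 13333 genes tested were called higher and 5.06% lower. By adjusted p alone, 16 members rose and 1 fell (RRN3), against 14.4% of all genes higher and 14.6% lower, and 21 did not pass. In these bulk samples a change in the make-up of the cells and a change per cell cannot be told apart. The median log2 fold change was 0.23 over the members and 0.01 over all genes tested. With normalization by total counts in place of TMM the median over all genes was 0.10 and over the members 0.32, and 10 members were called higher, where 10.6% of all genes were. Single libraries weighed on these counts. In AF9 KD replicate 1, 36 of the 38 members lay above their own mean over the experiment's libraries, at a median deviation of 0.22 (log2). In AF9 KD replicate 2, 19 did, at a median of 0.02. In the controls 8 and 9 did, at -0.14 and -0.10. Leaving one out leaves 1 library in a group, so only effect sizes are given for these fits. The median over the members then ran from 0.15 to 0.33. Among the called members TCOF1 went down to 0.48 and RRP9 to 0.50, and RRN3 ran from -0.66 to -0.41.

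**Figure D1:**
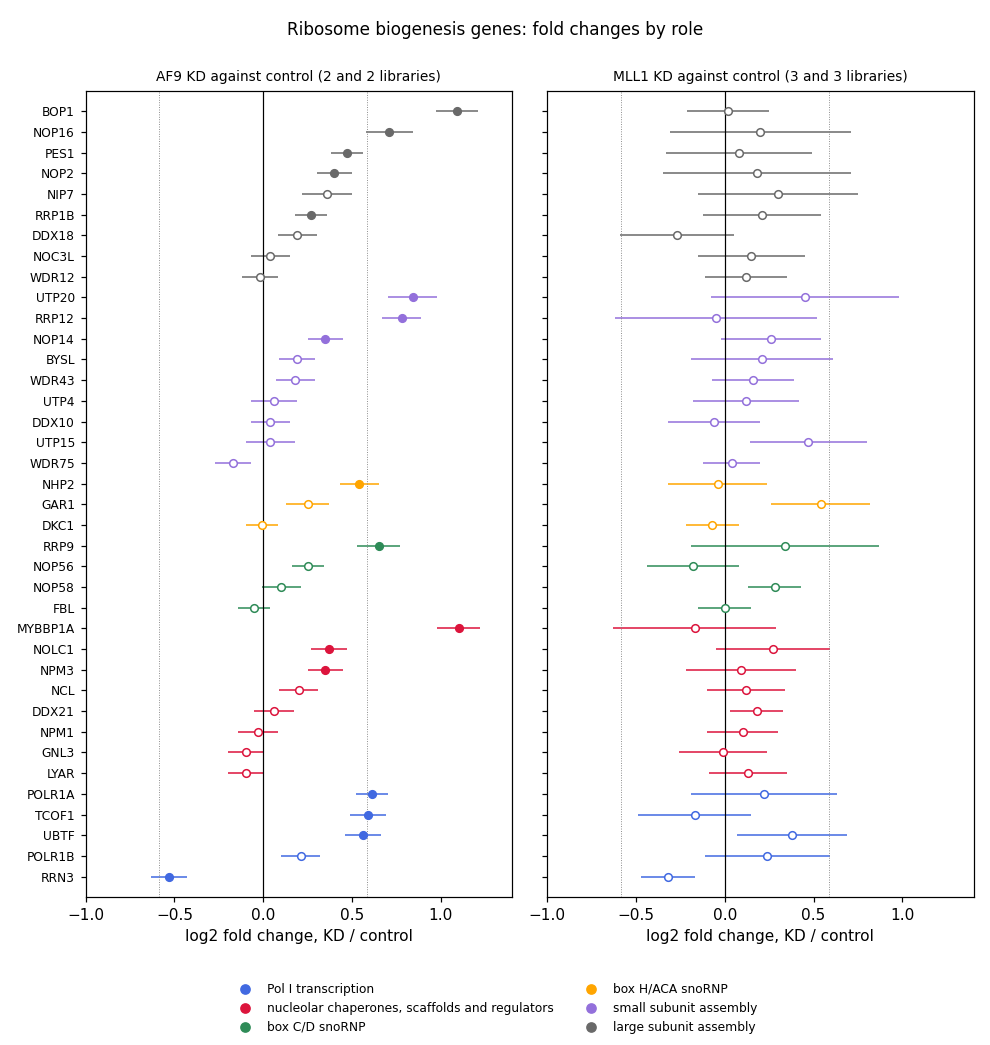
Log2 fold change (x axis, KD over control, with its SE as a bar) of each of the 38 genes, ordered by role and by the value in AF9 KD; filled points have an adjusted p under 0.05 and dotted lines mark a fold change of 1.5. In AF9 KD 17 points are filled, 16 of them to the right of 0, and in MLL1 KD none is.

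MYBBP1A and BOP1 rose most. MYBBP1A encodes a nucleolar protein that binds MYB and acts on Pol I transcription, and its mRNA was at 35.1 and 45.5 CPM in the controls and at 84.7 and 88.1 CPM in AF9 KD, a log2 fold change of 1.10 ± 0.12 (SE; edgeR adjusted p = 5.9e-05). BOP1, a scaffold of large subunit maturation, was at 48 and 61.4 CPM in the controls and at 124 and 108 CPM in AF9 KD, a log2 fold change of 1.09 ± 0.12 (edgeR adjusted p = 6.4e-05). In both genes each KD library was above each control library, by more than the difference between libraries of a group. BOP1 works in a complex with PES1 and WDR12, and its partners differed from it: PES1 was at 89.6 CPM in either control and at 127 and 121 CPM in AF9 KD (log2 fold change 0.47 ± 0.09, edgeR adjusted p = 0.0025), while WDR12 was at 109 and 111 against 118 and 99 CPM, with overlapping groups (-0.02 ± 0.10, edgeR adjusted p = 0.901).

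Among the 5 genes of Pol I transcription 3 rose and 1 fell. POLR1A, the largest subunit of Pol I, was at 104 and 109 CPM in the controls and at 169 and 157 CPM in AF9 KD (log2 fold change 0.61 ± 0.09, edgeR adjusted p = 4.5e-04). TCOF1, the nucleolar protein treacle, was at 99.3 and 117 against 171 and 155 CPM (0.59 ± 0.10, edgeR adjusted p = 0.00122). Both were higher in each KD library than in each control. UBTF, the factor that binds and opens ribosomal DNA, was at 116 and 135 against 186 and 182 CPM (0.56 ± 0.10, edgeR adjusted p = 0.0013), just under the fold change for a call. RRN3 went the other way. This gene encodes the initiation factor TIF-IA, which brings Pol I to the promoter, and its mRNA was at 156 and 148 CPM in the controls and at 96.3 and 114 CPM in AF9 KD (-0.53 ± 0.10, edgeR adjusted p = 0.00214). POLR1B, the second subunit, had a log2 fold change of 0.21 and did not pass (edgeR adjusted p = 0.144).

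The chaperones and scaffolds of the nucleolus were the most abundant group, and its most abundant members did not pass the test. Of the 8 genes 3 rose, namely MYBBP1A, NOLC1 (0.37 ± 0.10, edgeR adjusted p = 0.0143), a scaffold for Pol I and snoRNPs, and NPM3 (0.35 ± 0.10, edgeR adjusted p = 0.0217). NCL was at 1645 and 1661 CPM in the controls and at 2063 and 1738 CPM in AF9 KD (0.20 ± 0.11, edgeR adjusted p = 0.192). The GTP-binding protein nucleostemin, GNL3, was at 419 and 401 against 408 and 357 CPM (-0.10 ± 0.10), and LYAR was at 107 and 106 against 104 and 93.7 CPM (-0.10 ± 0.10). NPM1 and the helicase DDX21 had log2 fold changes of -0.03 and 0.06.

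Among the proteins of snoRNPs, 1 of the 4 of box C/D particles and 1 of the 3 of box H/ACA particles rose. RRP9, the protein specific to the U3 snoRNP, was at 32.7 and 40 CPM in the controls and at 57.2 and 56.2 CPM in AF9 KD (0.65 ± 0.12, edgeR adjusted p = 0.0017). NHP2, of the box H/ACA particles, was at 39.6 and 45.1 against 63.2 and 60.1 CPM (0.54 ± 0.11, edgeR adjusted p = 0.00281). The enzymes of either particle type did not pass the test. FBL was at 339 and 355 CPM in the controls and at 333 and 340 CPM in AF9 KD (-0.05 ± 0.09), and DKC1, the pseudouridine synthase dyskerin, at 353 and 332 against 349 and 330 CPM (-0.01 ± 0.09). The core proteins NOP56 (0.25, edgeR adjusted p = 0.0511), NOP58 (0.10) and GAR1 (0.25, edgeR adjusted p = 0.136) did not pass either.

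Of the 9 factors of small subunit assembly 3 rose. UTP20 and RRP12 are large proteins of the maturing small subunit. UTP20 was at 48.3 and 46.6 CPM in the controls and at 98.7 and 70.7 CPM in AF9 KD (0.84 ± 0.14, edgeR adjusted p = 7.1e-04). RRP12 was at 47 and 53.9 against 91.8 and 81.1 CPM (0.78 ± 0.11, edgeR adjusted p = 2.9e-04). The KD libraries of UTP20 differed by more than those of the other called genes, but neither overlapped the controls. NOP14 rose by less (0.35 ± 0.10, edgeR adjusted p = 0.0148). WDR75, of the early particle with UTP4, UTP15 and WDR43, was at 160 CPM in either control and at 152 and 132 CPM in AF9 KD (-0.17 ± 0.10, edgeR adjusted p = 0.195). WDR43 had 0.18 ± 0.11 and, with UTP4, UTP15, DDX10 and BYSL, did not pass, at log2 fold changes between 0.04 and 0.19 for these 5.

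The 9 factors of large subunit assembly held 5 of the 16 rises, the highest count of a role. It was not the highest share, as 3 of the 5 genes of Pol I transcription rose. Beside BOP1 and PES1 the large subunit factors that rose were NOP16, NOP2, an RNA methyltransferase, and RRP1B. NOP16 was at 25.3 and 27.3 CPM in the controls and at 47.5 and 38.5 CPM in AF9 KD (0.71 ± 0.13, edgeR adjusted p = 0.00164). NOP2 and RRP1B had log2 fold changes of 0.40 and 0.27. Of the other 4, NIP7 had the highest value (0.36, edgeR adjusted p = 0.0663), and the helicase DDX18 was at 268 and 269 against 342 and 272 CPM (0.19 ± 0.11, edgeR adjusted p = 0.205).

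**Figure D2:**
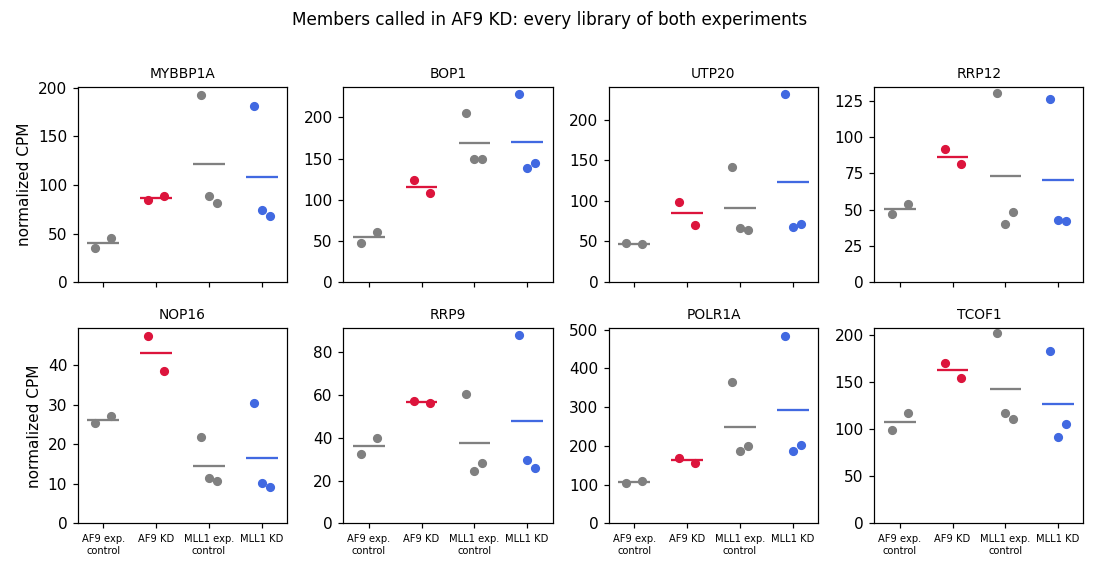
Normalized CPM (y axis from 0, own scale per gene) of the 8 genes called in AF9 KD, in every library of both experiments; points are libraries and bars are group means. In the AF9 experiment each KD point lies above both control points, and in the MLL1 experiment the first point of either group, replicate 1, lies above the others.

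The values in AF9 KD moved with the GC content of the genes. GC content of the merged exons was between 37.3% and 65.2% in the set, with a median of 54.8% for the 16 members that rose and 42.7% for the other 22, and its Spearman correlation with the log2 fold change was 0.71 over the 38 members and 0.48 over 13037 genes tested, given as descriptions over genes of the same 4 libraries. With a trend of counts on GC content taken out of each library, 4 members were called higher (UTP20, NOP16, MYBBP1A and POLR1A) and 0 lower, where 3.38% of all genes were called higher. By adjusted p 17 rose and 1 fell, against 11.6% and 14.6% of all genes, at a median of 0.25. The members that passed were in part others. UBTF, NPM3, RRP9, PES1, BOP1 and NOP2 no longer passed, and POLR1B, NOP58, GAR1, WDR43, NIP7, NOC3L and DDX18, all with a GC content of 48.4% or less, now did. BOP1, with the highest GC content of the set at 65.2%, went from 1.09 to 0.37 (edgeR adjusted p = 0.0514) and RRP9 (60.7%) from 0.65 to 0.21 (edgeR adjusted p = 0.163), while UTP20 (41.7%) went from 0.84 to 0.98.

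**Figure D3:**
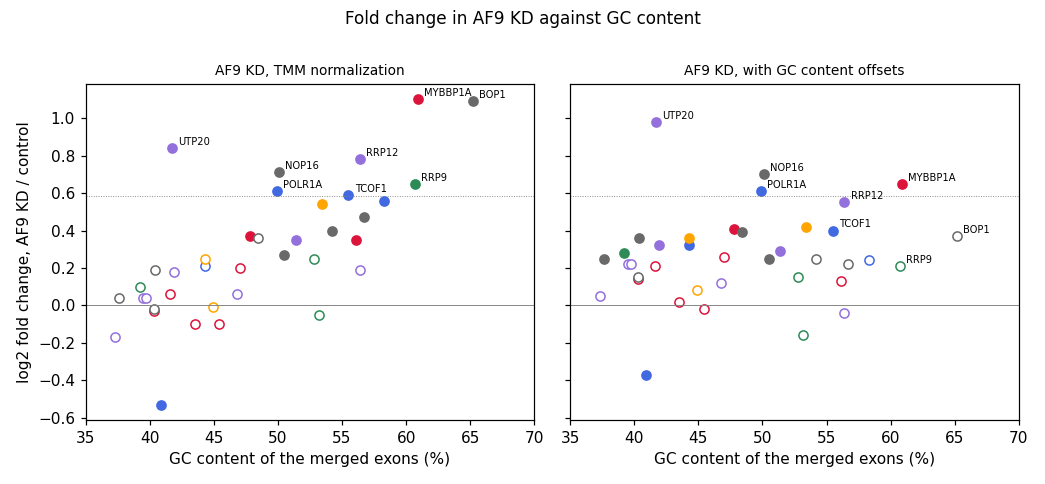
Log2 fold change in AF9 KD (y axis) against GC content of the merged exons (x axis, %) for the 38 genes, colored by role as in the plot by role, with TMM normalization at left and with GC content offsets at right; filled points have an adjusted p under 0.05 and the dotted line marks a fold change of 1.5. The upward slope at left, with BOP1 and MYBBP1A at the upper end, is mostly gone at right, where UTP20, NOP16, MYBBP1A and POLR1A stay above the line.

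Inside 6 members lie 23 annotated snoRNA genes, a class of RNAs that is as a rule released from introns. These hosts are NCL, GNL3, NOP56, NOP58, DKC1 and WDR43, and in AF9 KD none of them passed, at log2 fold changes between -0.10 and 0.25, against 16 higher and 1 lower of the 32 members without snoRNA genes. With GC content offsets 2 hosts passed, both higher. Of the 11 members with an E-box 6 rose in AF9 KD, at a median of 0.35, and of the 20 whose listed promoter holds none 5 rose and 1 fell, at a median of 0.13. With GC content offsets these counts were 5 and 6 higher at medians of 0.25 and 0.22. Both splits were looked at after the values were known and were not tested.

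MYC itself was at 380 and 391 CPM in the controls and at 376 and 384 CPM in AF9 KD (-0.02 ± 0.09), and at 1023, 953 and 966 CPM against 860, 947 and 994 CPM in the MLL1 experiment (-0.07 ± 0.10). It passed the test in neither. Of 11 genes of MYC and its partners tested in the AF9 experiment 1 rose (MLXIP) and 3 fell, against 14.4% and 14.6% of all genes. With GC content offsets 2 rose and 5 fell, against 11.6% and 14.6%. The 3 that fell without the offsets were the MYC partner MAX, at 137 and 133 against 99.5 and 101 CPM (-0.43 ± 0.09, edgeR adjusted p = 0.00359), the MYC antagonist MXD1, at 31 and 33.1 against 16 and 18.2 CPM (-0.91 ± 0.13, edgeR adjusted p = 3.7e-04), and MXI1. In the MLL1 experiment 0 of 12 passed with edgeR and 1 with DESeq2 (1 at an unadjusted p under 0.05 with either), and with the replicate block the MYC paralog MYCN rose, from 48.9, 21.5 and 23.4 CPM to 79.9, 65.8 and 69.2 CPM (1.26 ± 0.14, edgeR adjusted p = 9.8e-06).

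Part of the remaining pathway rose in AF9 KD too. Of 111 other ribosome biogenesis genes, all tested, 38 rose, 4 fell and 69 did not pass by adjusted p, where 14.4% and 14.6% of all genes rose and fell. Of the 111, 15 were called higher and 2 lower, where 8.02% and 5.06% of all genes were. Their median log2 fold change was 0.13. The highest values were those of TBL3 (1.10 ± 0.15) and NOC4L (1.05 ± 0.19), both of the small subunit processome, and of WDR18 (0.99 ± 0.16), which acts in the release of the large subunit. The lowest were those of RSL24D1 (-0.75 ± 0.09), a large subunit factor, the Pol I factor TAF1D (-0.72 ± 0.11) and the nuclear export adapter NMD3 (-0.39 ± 0.10). By list, 15 of 40 other small subunit factors rose and 0 fell, and 17 of 49 other large subunit factors rose and 3 fell. With GC content offsets 38 again rose and 4 fell, at a median of 0.17, where 11.6% and 14.6% of all genes did. Of the 111 genes 5 were then called higher, where 3.38% of all genes were. These counts moved when single libraries were left out.

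Before the MLL1 comparison, a difference between its replicates has to be given. The summed CPM of the 38 genes was 7000 in control replicate 1 and 8063 in KD replicate 1, and between 4506 and 4706 in the other 4 libraries. In 35 of the 38 members both replicate 1 libraries lay above all 4 others and in 0 below them, where this held for 23.5% and 22.7% of all genes tested. PES1, for example, was at 180 CPM in control replicate 1 and 182 CPM in KD replicate 1, and between 77.5 and 92 CPM in the others. The labels give no reason for it, and in the AF9 experiment the sums were 7996 and 8043 CPM in the controls and 9548 and 8300 CPM in AF9 KD.

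**Figure D4:**
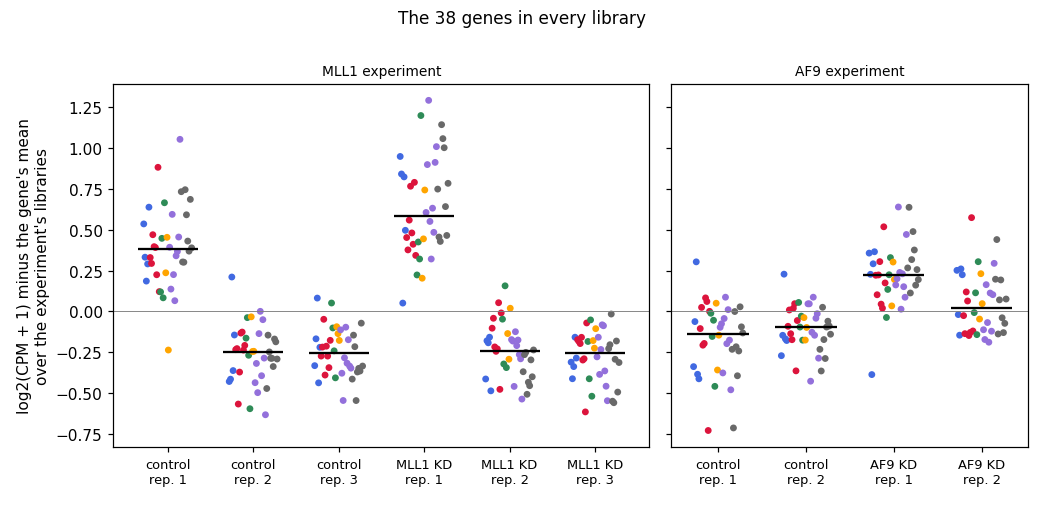
Deviation of log2(CPM + 1) from each gene's own mean over the libraries of its experiment (y axis) for the 38 genes in every library (x axis), colored by role as in the plot by role, with the median as a bar. The medians of the replicate 1 libraries of the MLL1 experiment are 0.38 and 0.58, and those of its other 4 libraries lie between -0.26 and -0.24. In the AF9 experiment they are -0.14 and -0.10 in the controls, 0.22 in KD replicate 1 and 0.02 in KD replicate 2.

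Knockdown of MLL1 gave no call in the set. None of the 38 genes was called, where 10 of the 14394 genes tested (0.0695%) were, and none passed by adjusted p. With so few calls among all genes, this count says little about the members. The targeted gene KMT2A was not called in this fit either. With DESeq2 0 members were called and 0 passed as well, where 1.61% of all genes were called and 1.92% passed. At an unadjusted p under 0.05 the count was also 0 with either tool, against 9.98% of all genes with edgeR. With the replicate as a block this count was 14 of the 38 members, against 3840 of the 14394 genes tested. With replicates 2 and 3 alone it was 13 members, against 4199 genes. The median log2 fold change was 0.13, and the values ran from -0.32 to 0.54. Leaving out a single library of the high replicate 1 pair moved the median, to 0.39 without control replicate 1 and to -0.24 without KD replicate 1, while leaving out both gave 0.02 and the replicate as a block 0.11.

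Replicate 1 of either group stood apart together in the MLL1 experiment, and the replicate numbers were taken as pairs. With the replicate as a block 4 members rose and 1 fell by adjusted p, against 6.63% and 7.00% of all genes, and still 0 members were called, where 4.75% of all genes were. UBTF was at 216, 137 and 130 CPM in the controls and at 313, 158 and 158 CPM in MLL1 KD (log2 fold change with the block 0.34 ± 0.08, edgeR adjusted p = 0.0079). NOLC1 was at 406, 238 and 235 against 525, 260 and 276 CPM (0.24 ± 0.07, edgeR adjusted p = 0.0251). Both were higher in KD within each of the 3 numbers. NOP58 (0.28 ± 0.09) and NOP14 (0.25 ± 0.08) rose as well, and DDX18, at 161, 87.5 and 94.8 against 138, 75.3 and 70.5 CPM, fell (-0.29 ± 0.09, edgeR adjusted p = 0.0367). With replicates 2 and 3 alone, added after the data were seen, 5 members rose and 4 fell, against 9.27% and 9.01% of all genes.

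The members with the highest and lowest values in MLL1 KD without the block were these. GAR1 had 0.54 ± 0.28, at 8.38, 8.33 and 8.77 CPM in the controls and 17.5, 10.2 and 9.27 CPM in MLL1 KD, with the highest level in KD replicate 1. UTP15 (0.47 ± 0.33), UTP20 (0.45 ± 0.53), UBTF (0.38 ± 0.31) and RRP9 (0.34 ± 0.53) followed, and in all 4 the replicate 1 library was the highest of either group. RRN3 was at 45, 45.8 and 41.8 CPM in the controls and at 40.9, 34.4 and 31 CPM in MLL1 KD, which do not overlap (-0.32 ± 0.15, edgeR adjusted p = 0.561, and 0.0791 with the block). It had the lowest value in both experiments. DDX18 (-0.27), NOP56 (-0.18), MYBBP1A (-0.17) and TCOF1 (-0.17) came next. Of the 8 genes called in AF9 KD none passed in MLL1 KD, with or without the block. Of all 14394 genes tested 5 rose and 5 fell without the block, and 6.63% and 7.00% with it. The count of none among 8 therefore says little about these genes.

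The members of each role with the highest mean TPM over the 6 libraries were, with their log2 fold changes without the block, UBTF at 0.38, NCL at 0.12 ± 0.22, FBL at -0.00 ± 0.15, NHP2 at -0.04 ± 0.28, NOP14 at 0.26 and RRP1B at 0.21. By role, the median log2 fold change in MLL1 KD was 0.22 for Pol I transcription, 0.11 for chaperones and scaffolds, 0.14 for box C/D and -0.04 for box H/ACA proteins, 0.16 for small and 0.15 for large subunit assembly. In AF9 KD the same medians were 0.56, 0.13, 0.17, 0.25, 0.18 and 0.36. Of the 111 other pathway genes none passed in MLL1 KD with edgeR or DESeq2 (median 0.06, 0 at an unadjusted p under 0.05). With the block 6 rose and 1 fell, where 6.63% and 7.00% of all genes did, and 19 had an unadjusted p under 0.05.

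Whether the 2 knockdowns differed was tested as an interaction over all 10 libraries. Without the block no member passed, where 1.36% of 12731 genes did, and BOP1 alone had an unadjusted p under 0.05 (MLL1 effect minus AF9 effect -1.05, edgeR adjusted p = 0.144). With the replicate as a block in both experiments 9 members passed, all with a lower effect in MLL1 KD than in AF9 KD, where 12.0% of all genes did so. The differences, with the edgeR adjusted p of each in parentheses, were -1.29 for MYBBP1A (1.3e-05), -1.08 for BOP1 (1.2e-04), -0.81 for RRP12 (0.00111), -0.76 for TCOF1 (8.7e-04), -0.57 for NHP2 (0.0146), -0.45 for DDX18 (0.0176), -0.44 for NOP56 (0.0163) and POLR1A (0.025), and -0.35 for PES1 (0.0493). With GC content offsets and the block 6 members passed, and without the block 2 passed once KD replicate 1 of the MLL1 experiment was left out. The share of all genes was not taken for these fits, so both counts say little about the members. Experiment and knockdown target cannot be told apart from other differences between the 2 tables.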

How the data were processed

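RNA-seq of HEL cells was analysed in 10 libraries. The authors trimmed strand-specific poly(A) reads with fastp 0.13.1, aligned them to hg38 with HISAT2 2.1.0 and counted reads per gene with featureCounts 1.6.1, per the labels' processing notes, and the annotation is not given in the sources used here. The deposited values are raw counts. CUT&Tag, PRO-seq and other samples were not analysed here.

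Symbols were matched to GENCODE 44 (92.3% of 28103) for merged-exon length, TPM and GC content. A mean of 1 TPM or more was required, and genes were tested with edgeR 4.0.16 (TMM, quasi-likelihood test, Benjamini-Hochberg adjustment) in R 4.3.3. DESeq2 1.42.0, other filters and scalings, offsets from a lowess trend (span 0.3) on GC content or length, a replicate block and leaving out each library were alternatives. The script was tested on simulated data. Deviations of same-numbered libraries from their group means correlated at 0.648, 0.326 and 0.352 in the MLL1 experiment, where the numbers were taken as pairs. Replicates 2 and 3 correlated as well across numbers (0.369 and 0.359), so the numbers set apart replicate 1 and do not order the other two.

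The members and gene lists were chosen with earlier results of these data known. Named are the targeted genes and MYC, members called, the 5 highest and 5 lowest members by log2 fold change, the most abundant of each role, and the 3 highest and 3 lowest other pathway genes that passed. Other members and MYC partners were named after their values were seen.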

Additional observations from a re-analysis of the deposited data

Results flagged for a closer look

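Of the differences between knockdown effects, 9 members passed the interaction test with the replicate block (MLL1 KD effect minus AF9 KD effect, log2, quasi-likelihood test in edgeR, adjusted by Benjamini-Hochberg): MYBBP1A at -1.29, BOP1 at -1.08, RRP12 at -0.81, TCOF1 at -0.76, NHP2 at -0.57, DDX18 at -0.45, NOP56 at -0.44, POLR1A at -0.44 and PES1 at -0.35. That block took the replicate numbers of both experiments as pairs. All 9 had a lower effect in MLL1 KD, where 12.0% of 12731 genes did so. Without the block 0 members passed, where 1.36% of all genes did. With the block in the MLL1 experiment alone, added after the data were seen, 8 members passed, all of these but PES1. The share of all genes was not taken for that fit. NOP56 had not passed in AF9 KD alone (0.25, adjusted p = 0.0511) nor in MLL1 KD with the block (-0.20, adjusted p = 0.126). Groups here hold at most 3 libraries, so outlying libraries were not looked for by a rule, although the replicate 1 libraries of the MLL1 experiment stand apart for 35 of the 38 members.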

How the results depend on the processing

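In AF9 KD the count of 8 called members moved to 4 with GC content offsets, with or without the replicate block, to 2 at a threshold of 2-fold and 17 at one of 1.2-fold, and to between 4 and 10 when a library was left out (5 without control replicate 1, 4 without AF9 KD replicate 1). Members past the adjusted p numbered 10 to 25 and other pathway genes 18 to 51 when a library was left out, and the median stayed between 0.15 and 0.33. RRN3 had a negative log2 fold change under all alternatives run. MYBBP1A was called under all alternatives that kept 2 libraries in each group. With GC content offsets calls among all genes were 451 higher and 598 lower, against 1069 and 674 with TMM and 1414 and 438 with total counts. The AF9 replicate numbers were taken as pairs only in the fits with a replicate block, the interaction with the block included. Deviations of same-numbered AF9 libraries correlated at 0.156, a single value, since with 2 libraries a group they mirror each other. With the replicate block 18 members rose and 1 fell, as 2749 and 2696 of the 13333 genes tested did.

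In MLL1 KD 0 members were called under all alternatives. By adjusted p 5 members and 7 other pathway genes passed with the replicate block, with or without GC content offsets, and 9 and 8 with replicates 2 and 3 alone (chosen after seeing the data), while leaving out a library gave 0 throughout. The block also brought KMT2A (lower), MYCN (higher) and 1 other pathway gene (lower) to a call. Without single libraries the median ran from -0.24 to 0.39, the lowest without KD replicate 1 and the highest without control replicate 1. The interaction gave 9 members with the replicate block, 8 with the block in the MLL1 experiment alone, 6 with GC content offsets and the block, 12 with replicates 2 and 3 of the MLL1 experiment alone, and 0 to 2 without single libraries. The cause of these changes was not tested.

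Among the members named, signs turned only in an experiment in which the member was not called. Leaving out a library of the MLL1 experiment gave log2 fold changes from -0.02 to 0.65 for UBTF, -0.53 to 0.16 for TCOF1, -0.10 to 0.34 for NCL, -0.77 to 0.35 for MYBBP1A, -0.12 to 0.08 for FBL, -0.50 to 0.02 for NOP56, -0.45 to 0.86 for RRP9, -0.33 to 0.22 for NHP2, -0.38 to 0.93 for UTP20, -0.05 to 0.53 for NOP14, -0.65 to 0.06 for DDX18 and -0.23 to 0.49 for RRP1B. FBL in MLL1 KD was at 0.00 in each use of DESeq2, 0.02 with GC content offsets and 0.03 with length offsets. In AF9 KD DKC1 ran from -0.05 to 0.03 without single libraries and was at 0.08 with total counts and likewise 0.08 with GC content offsets and 0.01 at a mean TPM of at least 5. GC content offsets gave 0.02 for GNL3 and 0.05 for WDR75, each with or without the replicate block, and total counts gave 0.04 for FBL.

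With 2 or 3 libraries a group, the smallest two-sided exact permutation p for a single gene is 0.333 or 0.1, so calls rest on the spread pooled over genes. In simulated counts on the real means the test of the AF9 design recovered more of the changed genes than that of the MLL1 design at 2-fold. The simulated spread was that of the fits without the block, and no shift of replicate 1 was simulated. The difference therefore does not compare the numbers of libraries.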
